A study of Arabidopsis thaliana with 4 samples.

Results

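The *SAUR* (*Small Auxin Upregulated RNA*) genes of Arabidopsis lie partly in tandem arrays, in which neighbouring genes are copies of each other. The 33 *SAUR* genes of 6 such arrays, 1 each on chromosomes 1, 2, 3 and 5 and 2 on chromosome 4, were taken by their locus numbers. They are 33 of the 80 *SAUR* genes named in the annotation and of its 27444 protein-coding genes. A gene was credited with a FUL binding site, whatever the score, when the site maximum fell into a window that began 3000 bp before its start codon and ended 1000 bp after its stop codon. Such a site was listed for 17 of the 33 array genes (51.5%), against 14.0% of all protein-coding genes. Counted once each, the sites of the 17 genes numbered 14. The array on chromosome 1 had none, and on chromosome 5 only *SAUR24* had any.

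FUL-GFP was immunoprecipitated with a GFP antibody from pistils and siliques (stages 12 to 16). All plants, those of the inputs included, were *ful-1* mutants that carried *FUL* fused to the coding sequence of green fluorescent protein under the *FUL* promoter (pFUL:FUL-GFP), in a mixed Col/Ler background. They were grown at 22 °C with 16 h light and 8 h dark, on soil by the sample labels and on rockwool by the methods. There were 2 ChIP samples, set against 2 input samples of chromatin DNA without precipitation, and a precipitation from plants without the fusion protein was not used here. Whole organs were used, so that a site bound in a few cells and one bound weakly in many cannot be told apart. The data used here are 1 list of 2831 sites for the whole experiment, each with a start, an end, a maximum and 1 score from the peak caller CSAR. Scores ranged from 2.99 to 1071.13, with a median of 4.43 and an upper quartile of 6.81. A score has no error and no read number, the depth of the libraries is unknown, and the list gives no false discovery rate. Values are therefore set side by side without tests, and a site weaker than the end of the list is not detectable.

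SAUR proteins are small, short-lived proteins, and many of their genes are switched on within minutes of auxin addition. They bind and inhibit PP2C-D phosphatases, which otherwise switch off the plasma membrane proton pumps (AHA). The pumps then acidify the cell wall, and the cell expands. FUL is a MADS domain transcription factor of valve development and silique growth, and MADS domain proteins bind the CArG box, a stretch of A and T between CC and GG.

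The sequences around the 7 highest-scoring sites of the arrays are shown first, with the hexamer CATGTG marked, which was chosen after the sequences had been seen. None of the 7 holds an exact CArG box, but of all listed sites of at least the upper quartile only 10.1% hold one. Each is the plus strand of the RefSeq TAIR10.1 genome, 100 bp to each side of the maximum, in order of score, and is named by the array gene with the nearest start codon. Capitals mark CATGTG or its reverse complement CACATG.
*SAUR16* site (chr4:18128216-18128416): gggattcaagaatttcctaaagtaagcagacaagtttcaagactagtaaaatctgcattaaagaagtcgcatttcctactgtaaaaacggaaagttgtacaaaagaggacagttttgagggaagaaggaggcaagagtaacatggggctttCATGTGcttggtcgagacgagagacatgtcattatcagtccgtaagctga
*SAUR29* site (chr3:977570-977770): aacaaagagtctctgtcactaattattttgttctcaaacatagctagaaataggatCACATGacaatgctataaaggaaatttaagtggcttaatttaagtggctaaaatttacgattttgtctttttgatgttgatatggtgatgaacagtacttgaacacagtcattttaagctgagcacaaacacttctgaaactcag
*SAUR24* site (chr5:5983169-5983369): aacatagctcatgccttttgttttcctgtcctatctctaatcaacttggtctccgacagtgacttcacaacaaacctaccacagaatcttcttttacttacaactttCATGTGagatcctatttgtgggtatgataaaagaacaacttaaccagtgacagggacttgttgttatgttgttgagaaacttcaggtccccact
*SAUR4* site (chr4:16596266-16596466): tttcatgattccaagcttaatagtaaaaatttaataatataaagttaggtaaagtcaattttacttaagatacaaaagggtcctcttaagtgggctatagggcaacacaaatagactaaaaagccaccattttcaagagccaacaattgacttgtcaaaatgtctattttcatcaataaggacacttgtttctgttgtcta
*SAUR28* site (chr3:980655-980855): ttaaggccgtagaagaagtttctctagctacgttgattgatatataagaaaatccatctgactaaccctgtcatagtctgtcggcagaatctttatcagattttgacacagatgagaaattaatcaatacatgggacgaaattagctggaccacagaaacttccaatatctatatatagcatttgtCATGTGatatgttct
*SAUR73* site (chr3:982587-982787): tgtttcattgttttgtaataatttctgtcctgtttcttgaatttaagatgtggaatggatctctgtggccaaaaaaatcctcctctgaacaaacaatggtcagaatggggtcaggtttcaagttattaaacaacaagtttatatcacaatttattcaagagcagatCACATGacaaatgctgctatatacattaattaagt
*SAUR6* site (chr2:9087061-9087261): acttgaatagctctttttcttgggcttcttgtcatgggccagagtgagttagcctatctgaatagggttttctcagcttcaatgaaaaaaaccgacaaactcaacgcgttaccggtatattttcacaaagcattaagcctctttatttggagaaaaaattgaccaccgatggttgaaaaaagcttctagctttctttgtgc

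The hexamer occurs in 5 of these 7 windows, against 15.2% of all listed sites of at least the upper quartile. It begins 51 bp from the maximum at *SAUR16*, 44 bp at *SAUR29*, 7 bp at *SAUR24*, 86 bp at *SAUR28* and 66 bp at *SAUR73*. The windows at *SAUR4* and *SAUR6* lack it.

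**Figure D1:**
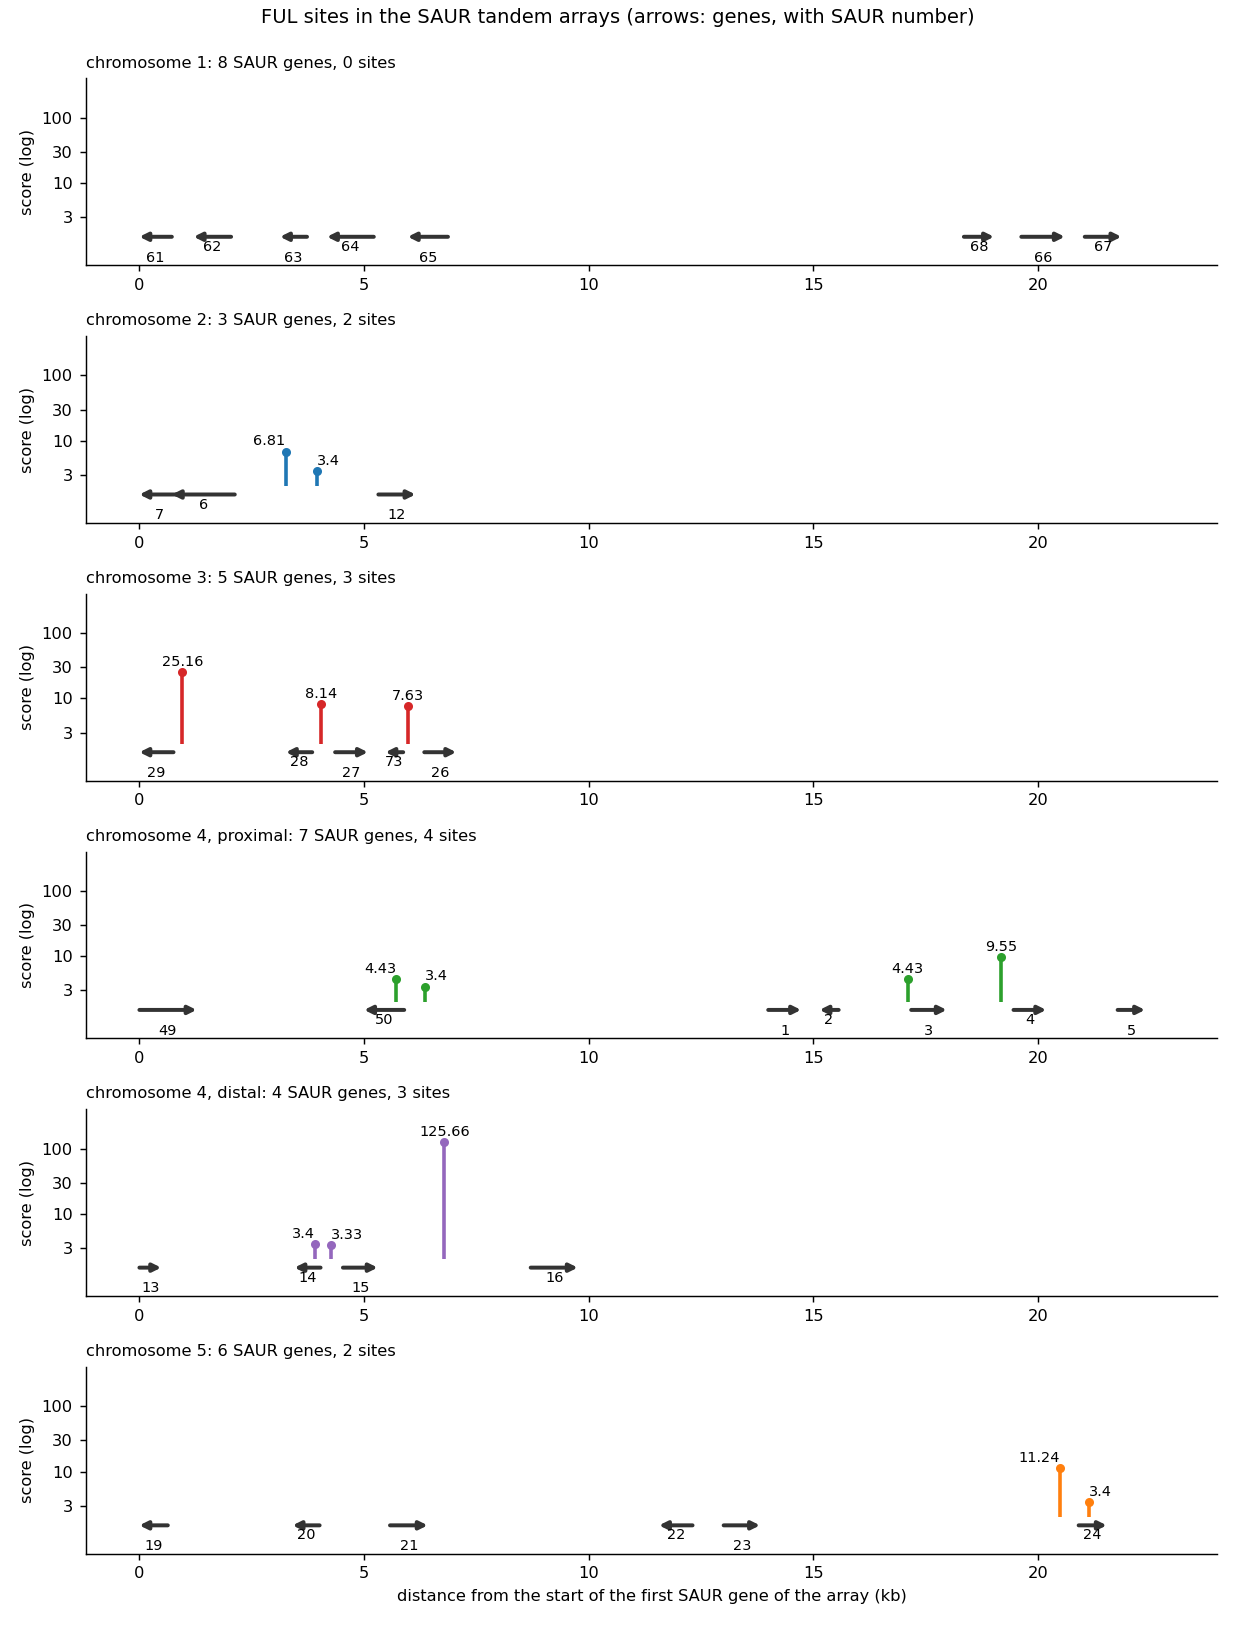
Map of the 6 arrays, with distance from the start of the first *SAUR* gene of the array in kb on the x axis, genes as arrows in their direction of transcription with their *SAUR* number, and each FUL binding site as a line up to its score (log axis, value printed). The array of chromosome 1 has no site, and the highest score, 125.66, stands between *SAUR15* and *SAUR16* in the distal array of chromosome 4.

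The distal array of chromosome 4 spans 9.759 kb and holds *SAUR13* (AT4G38825), *SAUR14* (AT4G38840), *SAUR15* (AT4G38850) and *SAUR16* (AT4G38860). *SAUR15*, also called *SAUR-AC1*, is a classical auxin-induced gene, and *SAUR14* and *SAUR16* are induced by light in opening cotyledons. The strongest site of all arrays (chr4:18128032-18128620, score 125.66) ranked 12 in the whole list and was the longest of the 14, at 588 bp. From its maximum there were 2041 bp to the start codon of *SAUR16* and 2843 bp to that of *SAUR14*, on the far side of *SAUR15*. The start nearest to it was that of AT4G09765, a long non-coding RNA, whose transcript starts 1025 bp away. For *SAUR15*, whose body lies between this site and *SAUR14*, it was not counted, since it lies downstream of the gene and outside of its window. Both other sites of the array were weak. The site inside *SAUR14* (chr4:18125443-18125543, score 3.4) had its maximum 30 bp past the start codon, in the coding exon, and 814 bp upstream of *SAUR15*. The other (chr4:18125786-18125800, score 3.33) was only 14 bp long and lay in the 783 bp between the divergent genes *SAUR14* and *SAUR15*, 313 and 471 bp from their start codons. *SAUR13* had no site in its window, and the nearest maximum was 3562 bp past its stop codon.

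On chromosome 3 all 5 genes, *SAUR29* (AT3G03820), *SAUR28* (AT3G03830), *SAUR27* (AT3G03840), *SAUR73* (AT3G03847) and *SAUR26* (AT3G03850), had a site, and all 3 sites scored above the upper quartile of the list. It was the only array of which this held. *SAUR26*, *SAUR27* and *SAUR28* are known for temperature-dependent growth. The site of *SAUR29* (chr3:977427-977801) had a score of 25.16, rank 69, and its maximum was 447 bp before the start codon. A site with a score of 8.14 (chr3:980659-981018) lay in the 860 bp between the divergent genes *SAUR28* and *SAUR27*, 358 bp and 503 bp from their start codons. A site with a score of 7.63 (chr3:982629-982929) lay in the 609 bp between *SAUR73* and *SAUR26*, which are divergent as well, 100 bp and 510 bp from their start codons. Each of these shared sites also fell in the window of a gene further on, that is *SAUR26* at 2442 bp and *SAUR28* at 2290 bp.

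The sites of both gene pairs overlap with a duplicated stretch. The sequence from 980774 to 981018 on chromosome 3 matched that from 982575 to 982820 on the other strand, with an identity of 80.1% over 251 aligned bases. Each copy overlapped with a listed site, with the scores 8.14 and 7.63, and the aligned copies shared the CACATG hexamer at the same position. A second stretch, from 982823 to 982929, matched that from 980632 to 980743 on the other strand, with an identity of 70.5% over 122 aligned bases. There the site with a score of 7.63 had a CATGTG that its copy lacked. The maxima did not match in position, since that of the site with a score of 8.14, at 980755, lay between the aligned stretches. All positions of these copies were unique in the genome for a read of 36 bases.

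The proximal array of chromosome 4 spans 22.389 kb and holds *SAUR49* (AT4G34750), *SAUR50* (AT4G34760), *SAUR1* (AT4G34770), *SAUR2* (AT4G34780), *SAUR3* (AT4G34790), *SAUR4* (AT4G34800) and *SAUR5* (AT4G34810). Of its 7 genes, 5 had a site, and of its 4 sites only that of *SAUR4* (chr4:16596314-16596581, score 9.55, rank 347) reached the upper quartile. Its maximum was 494 bp upstream of *SAUR4* and 2699 bp upstream of *SAUR5*, the next gene in the same direction. The site between the divergent genes *SAUR2* and *SAUR3* (chr4:16594274-16594309, score 4.43) was 35 bp long and lay 252 bp upstream of *SAUR3*, 1570 bp upstream of *SAUR2* and 2573 bp upstream of *SAUR4*. *SAUR50*, another gene induced by light in cotyledons, had a pair of weak sites. One (chr4:16582857-16582994, score 4.43) had its maximum in the 5′ UTR, 106 bp before the start codon, and the other (chr4:16583532-16583568, score 3.4) was 738 bp upstream. The start nearest to this weaker site was that of AT4G09025, another long non-coding RNA. *SAUR49* and *SAUR1* had no site, with the nearest maxima 4882 bp and 2621 bp past their stop codons.

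On chromosome 2 a single stretch of 3369 bp between the divergent genes *SAUR6* (AT2G21210) and *SAUR12* (AT2G21220) held both sites. The stronger (chr2:9087161-9087338, score 6.81) was 1151 bp upstream of *SAUR6*, 2219 bp upstream of *SAUR12* and 2862 bp upstream of *SAUR7* (AT2G21200), and the weaker (chr2:9087857-9088020, score 3.4) was 1847 bp upstream of *SAUR6* and 1523 bp upstream of *SAUR12*. Both maxima lay in exons of long non-coding RNAs, AT2G07375 and AT2G07385, whose starts were 71 bp and 132 bp away. All 3 genes of the array thus had a site, but none within 1000 bp of a start codon.

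**Figure D2:**
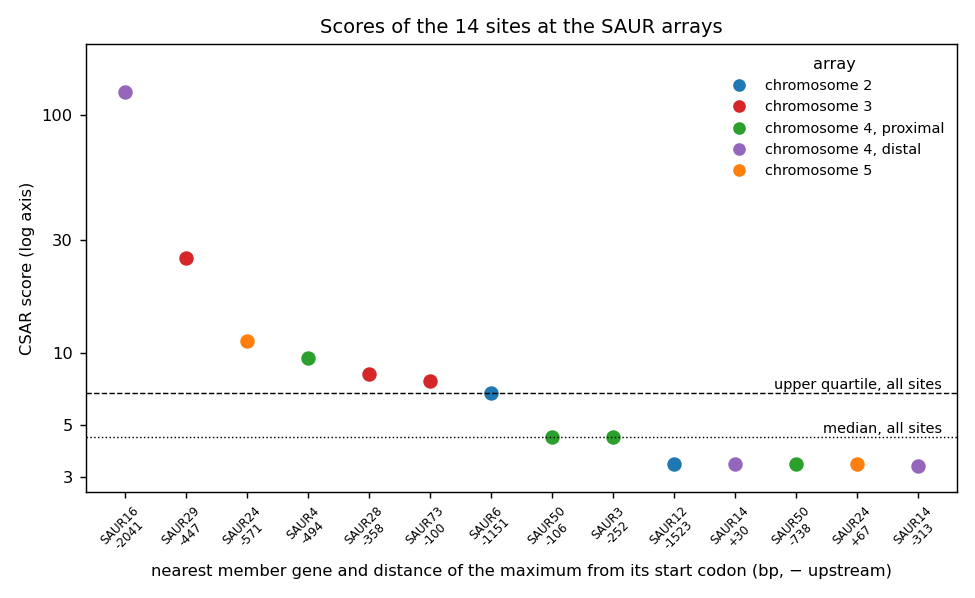
Score of each of the 14 sites (log axis), from the highest to the lowest, with the nearest array gene and the distance of the maximum from its start codon in bp on the x axis, and lines at the median (4.43) and the upper quartile (6.81) of the 2831 listed sites. Of the 14 sites, 7 are at or above the upper quartile, and 3 of these 7 belong to chromosome 3.

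The 6 genes of chromosome 5, *SAUR19* to *SAUR24*, promote cell expansion, and their coding sequences are the most alike of all arrays, with identities between 88.6% and 95.9%. *SAUR24* (AT5G18080) had a site with a score of 11.24 (chr5:5983197-5983422, rank 282), the third highest of the arrays, 571 bp before the start codon. A weak site of 22 bp in its coding exon (chr5:5983907-5983929, score 3.4) had its maximum 67 bp past the start codon. *SAUR19* (AT5G18010), *SAUR20* (AT5G18020), *SAUR21* (AT5G18030), *SAUR22* (AT5G18050) and *SAUR23* (AT5G18060) had none. The next maximum, of a site with a score of 8.14 between *SAUR23* and *SAUR24*, lay 2308 bp past the stop codon of *SAUR23* and 3647 bp upstream of *SAUR22*, outside of every window.

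The sequence of the *SAUR24* site is present at other genes of the array without a listed site. Copies were found upstream of *SAUR20* (83.5% identity over 170 aligned bases), *SAUR19* (82.1% over 123) and *SAUR21* (77.4% over 168), centred 476, 468 and 488 bp before the start codons. The closest copy is shown because it differs within the hexamer. Capitals mark bases that differ between both sequences or have no partner in the other.
*SAUR24* site (chr5:5983257-5983422, + strand): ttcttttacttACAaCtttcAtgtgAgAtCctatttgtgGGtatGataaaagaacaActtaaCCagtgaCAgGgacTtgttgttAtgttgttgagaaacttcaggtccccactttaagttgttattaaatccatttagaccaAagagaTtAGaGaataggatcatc
*SAUR20* copy (chr5:5966973-5967140, - strand): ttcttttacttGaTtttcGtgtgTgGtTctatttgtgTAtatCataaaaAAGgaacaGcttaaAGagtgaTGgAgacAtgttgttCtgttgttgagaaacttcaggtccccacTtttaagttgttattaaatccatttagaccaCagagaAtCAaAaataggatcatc
The CATGTG of the *SAUR24* site was absent from the *SAUR20* copy, while the *SAUR21* copy had it at the same position, again without a listed site. The stretch aligned with *SAUR19* does not include it. All positions of the 3 copies were unique for a read of 36 bases, as were those of the *SAUR24* stretch. The read length is unknown and the mapping allowed mismatches, so that the part of mapping in the missing sites was not tested. The coding site of *SAUR24* was different in this respect. It matched 13 other stretches in the windows of array genes, with identities up to 93.4%, none with a listed site. Only 63.2% of the positions around its maximum were unique at 36 bases, but 84.1% were at 50 bases and 99.5% at 75 bases.

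The array of chromosome 1 holds *SAUR61* to *SAUR68* (AT1G29420 to AT1G29510), 8 genes of the group of *SAUR63* (AT1G29440), which promote the elongation of hypocotyls and stamen filaments. No site was listed in their windows, which cover 17.967 kb. The nearest maximum, with a score of 6.73, was between 30932 bp (*SAUR67*) and 52018 bp (*SAUR61*) away. The annotation gives the name *SAUR68* to both AT1G29490 and AT1G29510. AT1G29510 is called *SAUR67* here after its other name.

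Because only uniquely mapped reads were kept by the authors, sequence shared between copies could not contribute reads. At 36 bases, 90.3% of the positions in the windows of chromosome 1 and 90.2% of those of chromosome 5 were unique, against 98.9% on chromosome 3, 99.8% and 99.99% in the proximal and distal arrays of chromosome 4, and 100% on chromosome 2. Over the windows of all protein-coding genes the share was 96.2%. Coding identities between genes of the same array were also highest on chromosome 5 (values above), with 81.7 to 92.0% on chromosome 1, 70.0 to 87.2% on chromosome 3, 65.7 to 76.2% on chromosome 2, and 61.2 to 78.0% and 59.5 to 72.2% in the proximal and distal arrays of chromosome 4. Thus the arrays with the fewest genes with a site were those with the most repeated sequence, and most positions of their windows were nevertheless unique. Within the coding sequence the lowest shares of these arrays were 58.7% for *SAUR62* (85.9% of its window) and 55.7% for *SAUR19* (91.4% of its window). In other genes the coding share was higher than that of the window, as for *SAUR61* (98.5% against 85.2%) and *SAUR22* (94.5% against 82.6%). When sites were counted per kb of unique window, chromosome 5 had 0.131. With reads of 75 bases 95.1% of the windows of chromosome 1 and 98.2% of those of chromosome 5 were unique. The share over all protein-coding genes was then 97.8%. At this length the coding share was 95.2% for *SAUR19* and 74.9% for *SAUR62*. The read length is not given in the sources used here, the reference is that of Col, and the part of uniqueness in the number of sites was not tested.

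**Figure D3:**
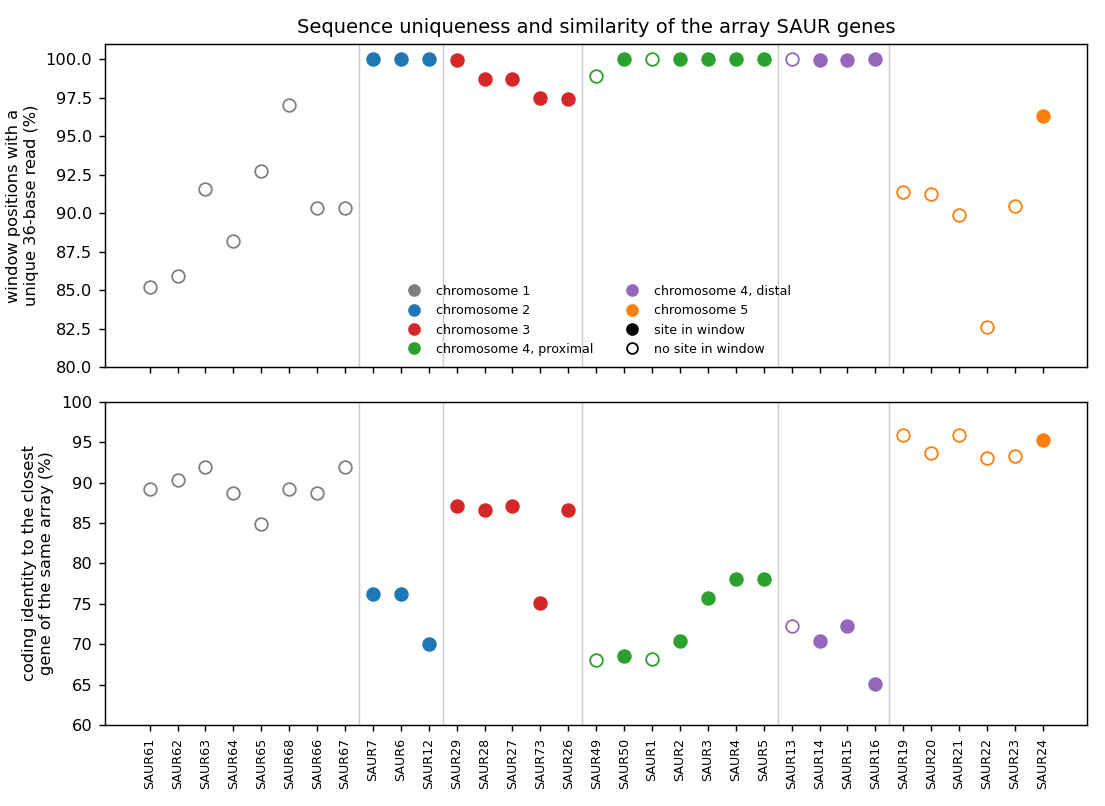
For each of the 33 array genes, in the order of the chromosomes, the upper panel plots the percentage of window positions at which a read of 36 bases occurs once in the genome, and the lower panel plots the identity of its coding sequence to the closest gene of the same array. Filled points are genes with a site in the window. In the upper panel the open points of chromosomes 1 and 5 lie below the filled points of chromosomes 2, 3 and 4. However, the filled point of *SAUR24* on chromosome 5 lies below the open point of *SAUR68* on chromosome 1. The open points of chromosome 4 (*SAUR49*, *SAUR1* and *SAUR13*) lie within the range of the filled points of chromosomes 2, 3 and 4.

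Per kb of window the arrays had 0.163 sites, against 0.0271 in the windows of all protein-coding genes and 0.0238 in the whole of chromosomes 1 to 5. Chromosome 3 was the densest, with 0.311 sites per kb, followed by chromosome 2 with 0.261, the distal array of chromosome 4 with 0.236, the proximal one with 0.192 and chromosome 5 with 0.118. Neighbouring genes share sites, so that their counts are not independent. Of the 14 sites, 5 had 1 array gene in reach, 5 had 2 and 4 had 3. With a window of 1000 bp upstream to 500 bp downstream, 11 of the 33 genes had a site (8.38% of all protein-coding genes), and with 5000 bp upstream 18 had one (18.1%). With a score of at least the median of the list, 16 had one (7.97%). When each site was given only to the protein-coding gene with the nearest start codon, 11 of the 33 genes kept one (8.41% of all protein-coding genes had one).

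The sites of the arrays scored higher than the list as a whole. At least the upper quartile was reached by 7 of the 14 sites (50%), against 26.4% of the other 2817 sites, and their median score was 5.62, against 4.43. By gene, 13 of the 33 (39.4%) had such a site, against 3.94% of all protein-coding genes. The sites were also longer, with a median of 170 bp, against 123 bp. The GC content within 100 bp of the maximum had a median of 36.3%, against 40.8% over all sites. However, 4 of the 14 were shorter than 50 bp, and in 6 (42.9%) the listed maximum was the first base of the site, as in 33.6% of the other sites.

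By position, the array sites were mainly upstream of genes. The 14 sites gave 27 pairs of a site and an array gene, of which 25 (92.6%) had the maximum upstream, 2 had it inside the coding region and 0 had it past the stop codon. Of the 4513 other pairs of a site and a protein-coding gene, 56.2% were upstream, 26.7% within and 17.2% downstream. The coding spans of the array genes are short, from 261 bp (*SAUR7*) to 561 bp (*SAUR65*). Most of each window is therefore upstream of the gene, and the part of gene length in these shares was not tested. The median distance upstream was 814 bp, against 1255.5 bp for the others. A distance between 400 and 600 bp was found for 6 of the 25 upstream pairs (24%), at *SAUR29*, *SAUR27*, *SAUR26*, *SAUR4*, *SAUR15* and *SAUR24*, against 6.66% of the others, a band chosen after the values had been seen. Of the 14 sites, 9 lay between divergent protein-coding genes, and in 8 of these both neighbours were array genes. The share over all listed sites was not counted, so that no preference can be read from this. Among the 8 are both sites of *SAUR50*, which lie near that gene in a stretch of 8557 bp. The genes just inside the limit of the window were *SAUR7* at 2862 bp, *SAUR14* at 2843 bp and *SAUR5* at 2699 bp, and *SAUR22* at 3647 bp was the one just outside.

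**Figure D4:**
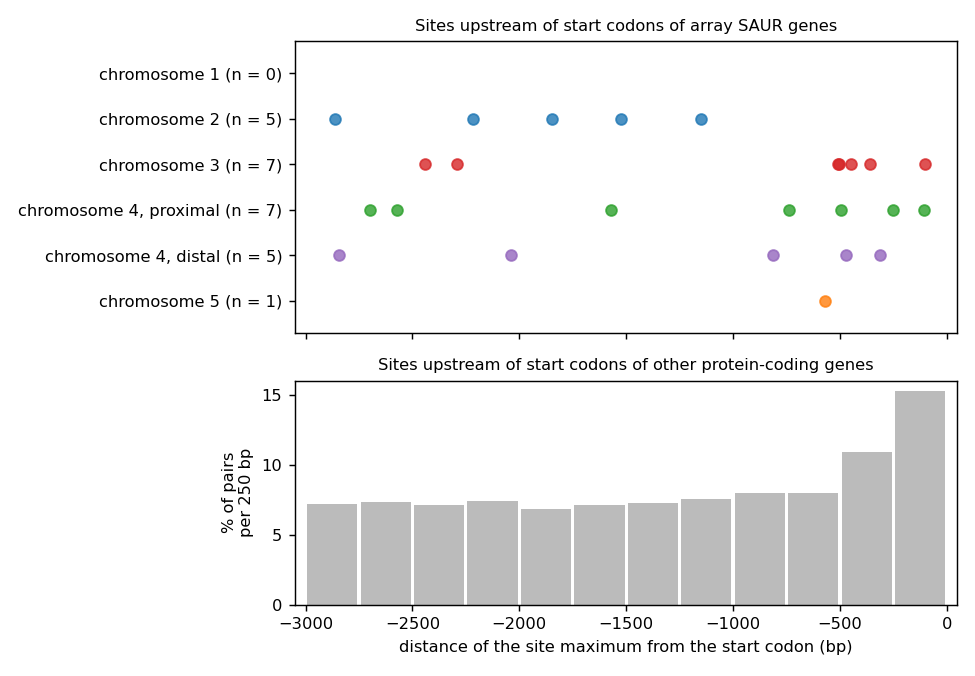
Distance of the site maximum from the start codon in bp (negative values are upstream) for the 25 upstream pairs of a site and an array gene, by array (upper panel), and the distribution of the upstream pairs of other protein-coding genes in bins of 250 bp (lower panel, in percent). Chromosome 2 has no point within 1000 bp, the 1 point of chromosome 5 is at 571 bp, and the other arrays have points both within and beyond 1000 bp.

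Motifs were searched on both strands within 100 bp of each maximum. None of the 14 sites had an exact CArG box, against 4.77% of all listed sites, 10.1% of those of at least the upper quartile and 1.23% of all genome windows of this length. Of the remaining array windows of this length, without a site, 0.258% had one. In the windows of the 33 genes there were 2 exact CArG boxes in all, both in the distal array of chromosome 4. One (chr4:18118857-18118866, ccatttatgg) was 2755 bp upstream of *SAUR13* and 6582 bp from the nearest maximum. The other (chr4:18125586-18125595, cctttattgg) was 113 bp upstream of *SAUR14*, 148 bp from the nearest maximum, which is that of the weak site in its coding exon. With 1 mismatch allowed, 3 of the 14 sites had a match, at *SAUR29*, *SAUR6* and *SAUR14* (21.4%, against 32.1% of all sites).

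The hexamer CATGTG, an E-box variant that phytochrome-interacting factors can bind, was found at 9 of the 14 sites (64.3%). It was found at 11.8% of all listed sites, in 17.6% of the array windows without a site and in 9.22% of all genome windows. Besides the 5 sites shown above, it was at both sites of *SAUR50*, at the site between *SAUR2* and *SAUR3*, 5 bp from the maximum, and at the weak site between *SAUR14* and *SAUR15*. At the weaker site of *SAUR50* and at that between *SAUR14* and *SAUR15*, it lay past the end of the listed site. Within 50 bp of the maximum 3 of the 14 sites had it, against 6.0% of all sites. The hexamers at *SAUR28* and *SAUR73* lie in copies of the same stretch and count as 2. The hexamer was looked at after the sequences of the sites had been seen, and in these windows it overlapped with none of the other motifs searched.

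Auxin response elements were less common. TGTCTC was found at 4 of the 14 sites (28.6%), against 14.4% of all sites and 10.8% of genome windows, and at *SAUR16* it lay 71 bp from the maximum. TGTCGG was also found at 4 sites (28.6%), against 8.12% of all sites and 3.25% of genome windows. It lay 9 bp from the maximum at *SAUR6*, 22 bp at *SAUR28*, 22 bp at the coding site of *SAUR14* and 48 bp at *SAUR24*. At *SAUR6* and *SAUR14* it lay before the first base of the listed site. The TGTCTC at the coding site of *SAUR24* lay past the end of that site. The G-box CACGTG was at 1 site, the weak one upstream of *SAUR12* (7.14%), against 13.1% of all sites, and lay before the first base of that site. A match describes the letters and does not show which protein was bound there.

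**Figure D5:**
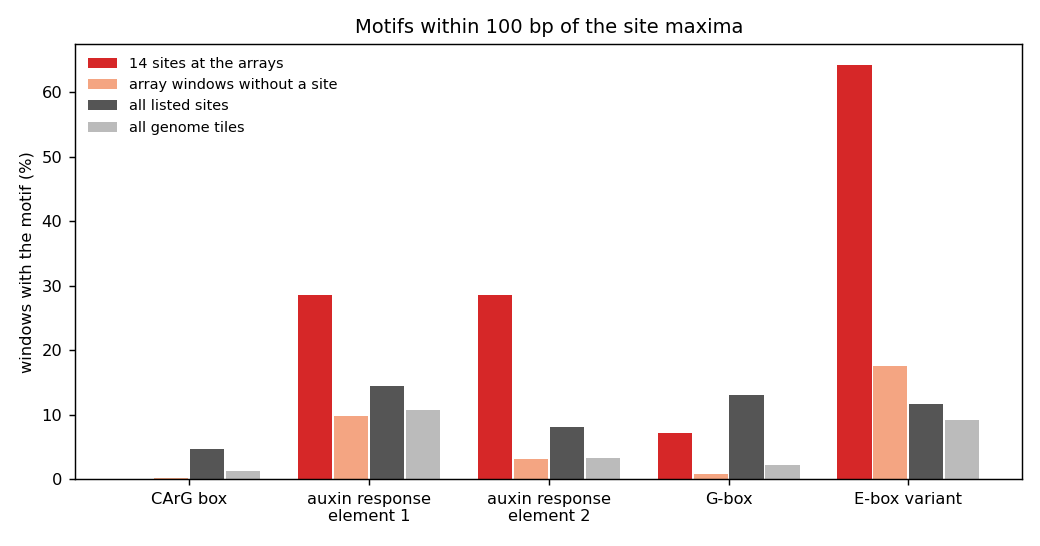
Percentage of windows, 100 bp to each side of a midpoint, with each motif, for the 14 array sites, the array windows without a site, all 2831 listed sites and all windows of the genome. Auxin response element 1 is TGTCTC and element 2 is TGTCGG. The E-box variant CATGTG stands at 64.3% for the array sites and at no more than 17.6% in the other sets.

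Among the 47 *SAUR* genes outside the arrays, 7 had a site (14.9%), which is close to the share of all protein-coding genes, and 1 of them (2.13%) had a site of at least the upper quartile. This was *SAUR10*, with 25.16 at 1432 bp upstream, the same score as that of *SAUR29*. *SAUR78*, *SAUR51* and *SAUR76* followed with 5.57 each. None of the 9 PP2C-D phosphatase genes, whose products SAUR proteins inhibit, had a site in its window, against 14.0% of all protein-coding genes. Of the 11 proton pump genes, 4 had one (36.4%), against the same 14.0%. A site of at least the upper quartile was found for 1 of the 11 (9.09%), against 3.94%. A window covers the whole gene, and the *HA4* site lay 4464 bp past the start codon. The part of gene length in this count was not tested. The site of *HA2*, one of the main proton pumps, had a score of 7.75 and lay inside the gene, that of *HA4* had 5 and also lay inside, and those of *HA7* and *HA11* had 4.43 each, 856 bp past the stop codon of *HA7* and 689 bp before the start codon of *HA11*. Expression was not analysed here, so the sites say where enrichment of FUL-GFP was listed and not whether a gene responded. The list holds sites of any score, and binding at the weak ones is not established by their being listed.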

How the data were processed

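ChIP-seq of FUL-GFP was measured in 2 ChIP and 2 input samples. Reads were aligned by the authors to TAIR9 (SOAPv2, at most 2 mismatches, no gaps), organellar and multiply placed reads were discarded, and CSAR was used to call sites relative to the input. The deposited list gives 1 CSAR score per site for the experiment as a whole, with no value per replicate. Its settings, and versions of the tools, are not given in the sources used here. The column of site lengths was taken as listed. No column of values per sample was left unused (0).

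Genes and sequences came from RefSeq TAIR10.1, whose chromosomes have the coordinates of TAIR9. The ends of all 2831 sites lay within its chromosome lengths. Positions are counted from 1. All array genes and all their sites are named. Genes outside the arrays are named where they lie nearest to such a site or were among the 3 with the highest-scoring site of the lists of other *SAUR*, PP2C-D and AHA genes, ties included. *HA11* and *HA7* are tied. The array genes and these lists were chosen with earlier results of these data known. *SAUR* genes were found by symbol, synonym or product.

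A position was unique when the 36 bases from it occur once in the genome on either strand. Copies of site sequences were searched with BLAST 2.17.0+ in the whole genome and counted from 100 aligned bases and an e-value of 1e-5. Coding identities were computed with Biopython 1.88, and the rest with Python 3.11.15, numpy 2.4.6, pandas 2.3.3 and matplotlib 3.10.9. Assignment, motif search and uniqueness were checked on simulated data first. No tests were made, because the scores have no replicates and the genes share sites. Alternatives concerned the window, the gene ends, the score, the assignment of genes, the motif windows and the read length.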

Additional observations from a re-analysis of the deposited data

How the results depend on the processing

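The number of array genes with a site was 17. It fell to 11 with a window of 1000 bp upstream to 500 bp downstream (8.38% of all protein-coding genes then had a site), with 3 genes in the proximal array of chromosome 4 and 0 on chromosome 2, whose sites also became 0. It was also 11 when only the nearest protein-coding start codon was used, with 3 genes each on chromosome 3 and in the proximal array of chromosome 4. With 5000 bp upstream (18.1% of protein-coding genes), chromosome 5 had 2 genes instead of 1. Of the 14 sites, 9 were left at a score of at least the median and 7 at the upper quartile. At either limit chromosomes 2 and 5 and the distal array of chromosome 4 had 1 site each, and at the upper quartile the proximal array had 1 site and 2 genes. Without sites whose maximum is their first base, an alternative added after the data had been seen, 8 sites were left, with 0 on chromosome 2, 1 in the distal array of chromosome 4 and 1 on chromosome 5. Merging sites within 500 bp left 1 on chromosome 5. A CArG box was found at 2 sites within 250 bp (7.63% of all sites) and at 3 with 1 mismatch. The 2 sites are the weak neighbours at *SAUR14*, and both hold the same box, that 113 bp upstream of *SAUR14*. CATGTG was found at 3 sites within 50 bp and at 12 within 250 bp (23.9% of all sites), both added later. The other 98 values moved by no more than 1.5 times, and with 5000 bp upstream chromosome 1 also had 0 genes and 0 sites.

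No paired analysis was possible because scores of single replicates are not part of the list used here, and leaving out a replicate could not be run for the same reason. The score has no error and the depth is unknown, so that a gene without a site cannot be told apart from one bound too weakly to be listed. Which of the 14 sites meet the false discovery rate limit of the study was not analysed here. Uniqueness was computed on the Col reference, whereas the plants were mixed with Ler.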
